A study of Mus musculus with 8 samples.

Results

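Keratins and genes of the bile duct epithelium were followed in mouse liver: 8 genes, taken by symbol from the 55487 genes of the deposited FPKM table. Krt8 and Krt18 are the keratins of the hepatocyte, and Krt7, Krt19, Krt23, Epcam, Sox9 and Cd24a are used as ductular genes. RNA-seq was done on livers of wild-type male C57BL/6N mice in 8 libraries, of which 1 was western diet + CCl4, 2 were western diet + oil, 2 were normal diet + CCl4 and 3 were normal diet + oil. The western diet was a high-fat chow given with drinking water that held 23.1 g/L fructose and 18.9 g/L glucose, and the normal diet was a standard chow with tap water. CCl4, a liver toxin, or its vehicle corn oil was injected into the peritoneum 1 time a week in every group. The dose, the duration and the age of the mice are not given in the sources used here. Nor do they say whether each library came from a separate animal, so the p-values cover no more than the scatter among these libraries, part of which may be technical.

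Keratins form filaments only as pairs of a type I and a type II chain, so the type II keratin Krt8 and the type I keratin Krt18 are made together. In liver, hepatocytes have this pair alone, and cholangiocytes, the cells that line the bile ducts, add Krt7 (type II) and Krt19 (type I). After chronic injury hepatocytes are known to make more Krt8 and Krt18, and small duct-like cells spread from the portal tracts, a change that pathologists call a ductular reaction.

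Krt8 (ENSMUSG00000049382, chromosome 15, 101996698 to 102004482, minus strand) and Krt18 (ENSMUSG00000023043, chromosome 15, 102028180 to 102032027, plus strand) lie near each other on GRCm38, with their GENCODE M21 starts 23698 bases apart and transcribed away from each other. Krt7 (ENSMUSG00000023039, chromosome 15, 101411043 to 101430313, plus strand) lies on the same chromosome. The 250 bases before the RefSeq start of each are shown because Krt8 and Krt18 are the chains of 1 pair and had the highest levels of the 8 genes, while Krt7 stands for the ductular keratins. They cover chr15:102004343-102004592 (minus strand) for Krt8, chr15:102027966-102028215 (plus strand) for Krt18 and chr15:101412153-101412402 (plus strand) for Krt7 in RefSeq's GRCm38.p6. Capitals mark matches to motifs searched on both strands, which were the GC box with the letters GGGCGG, the CCAAT box, the AP-1 motif with the letters TGANTCA, the motif of TEAD (the partner of YAP) with the letters GGAATG and the motif of RBPJ (the DNA-binding protein of Notch signalling) with the letters TGGGAA. No motif overlapped another in these windows. On the GENCODE M21 coordinates given above, the whole Krt7 window lies inside the gene. So do part of the Krt8 window, with its motif match, and the end of the Krt18 window. The windows thus lie wholly before the RefSeq starts only.
Krt8: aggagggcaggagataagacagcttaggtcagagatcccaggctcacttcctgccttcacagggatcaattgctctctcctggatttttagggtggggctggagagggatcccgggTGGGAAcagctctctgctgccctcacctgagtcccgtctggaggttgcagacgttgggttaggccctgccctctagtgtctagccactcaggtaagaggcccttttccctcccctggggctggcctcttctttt
Krt18: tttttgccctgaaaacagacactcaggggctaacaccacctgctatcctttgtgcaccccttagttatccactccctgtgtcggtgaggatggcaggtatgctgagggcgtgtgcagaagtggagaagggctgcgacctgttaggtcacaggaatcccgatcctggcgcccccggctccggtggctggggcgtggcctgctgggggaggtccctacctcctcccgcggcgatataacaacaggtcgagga
Krt7: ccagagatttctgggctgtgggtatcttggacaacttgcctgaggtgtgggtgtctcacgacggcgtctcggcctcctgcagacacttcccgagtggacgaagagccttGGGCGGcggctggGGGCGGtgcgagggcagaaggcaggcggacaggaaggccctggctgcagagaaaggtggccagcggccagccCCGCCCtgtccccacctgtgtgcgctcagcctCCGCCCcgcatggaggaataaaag
The Krt7 window held 4 GC boxes, at 141, 128, 56 and 24 bases before the RefSeq start. Of all 32851 windows of this length, 32.7% held at least 1. The Krt8 window held 1 match to the RBPJ letters, at 134 bases before the RefSeq start, and 21.6% of all windows held at least 1. None of the 5 motifs was matched in the Krt18 window. CCAAT, AP-1 and TEAD letters, present in 33.8%, 6.75% and 12.6% of all windows, were matched in none of these 3. Of the 8 genes, 5 had a window, and a match is a string of letters, not a site.

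The deposited values summed to between 514832 and 612747 FPKM per library, and between 12531 and 14843 genes stood above 0. Depth is unknown because only FPKM were analysed. Values above 0 started at 0.252 to 0.318 FPKM, depending on the library, so that most of the ductular values stood close to the level at which a gene is listed at 0, and a value of 0 is not taken as absence. Alb, the main serum protein of hepatocytes, had 15560 to 38050 FPKM and the hepatocyte regulator Hnf4a 60.0 to 89.6 FPKM over the libraries, which fits their label as liver. The major urinary proteins took 2.33% to 8.61% of the sum in the treated or western diet libraries and 15.6% to 30.6% with normal diet + oil. FPKM are shares of a library, and the median tested gene stood higher than with normal diet + oil by 0.19 (western diet + CCl4), 0.22 (western diet + oil) and 0.26 (normal diet + CCl4) on the log2(FPKM + 1) scale. A library that stood apart was normal diet + CCl4 library 1: 8 genes of the cell cycle summed to 71.9 FPKM there, against 0 to 7.29 FPKM in the other 7 libraries. Of the 10 hepatocyte markers, 0 passed by limma against normal diet + oil, with 4, 1 and 6 at an unadjusted p under 0.05 for western diet + CCl4, western diet + oil and normal diet + CCl4. Of all tested genes, 15.3%, 23.3% and 22.8% stood under it. Of the 3 tested cell cycle genes 0 passed by limma, with 0, 0 and 3 in the same order. These 3 reached 1 FPKM in no normal diet + oil library and so had to differ, and the count is no support.

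Krt8 and Krt18 were abundant in every library, and the western diet + oil libraries were the highest. In whole liver, fewer cells of a type and less RNA per cell cannot be told apart, here and for every gene that follows. Krt8 had 166 FPKM with western diet + CCl4, 206 and 265 FPKM with western diet + oil, and 184 and 127 FPKM with normal diet + CCl4, against 106, 111 and 77.4 FPKM with normal diet + oil. All 5 libraries of the other groups lay above the 3 of normal diet + oil, as they did for 21.4% of the tested genes. Krt18 had 191 FPKM with western diet + CCl4, 204 and 299 FPKM with western diet + oil, and 163 and 109 FPKM with normal diet + CCl4, against 128, 115 and 98.6 FPKM with normal diet + oil. Here the normal diet + CCl4 libraries overlapped those of normal diet + oil, library 2 lying between the controls. Among all genes of a library, Krt8 ranked between 270 and 588 and Krt18 between 244 and 554 by FPKM. A processed pseudogene, Krt8-ps, shares 22.0% of the 75-base words of the Krt8 transcripts, and fragments from these words cannot be assigned with certainty. It was listed at no more than 2.44 FPKM, a value that rests on the same assignment.

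**Figure D1:**
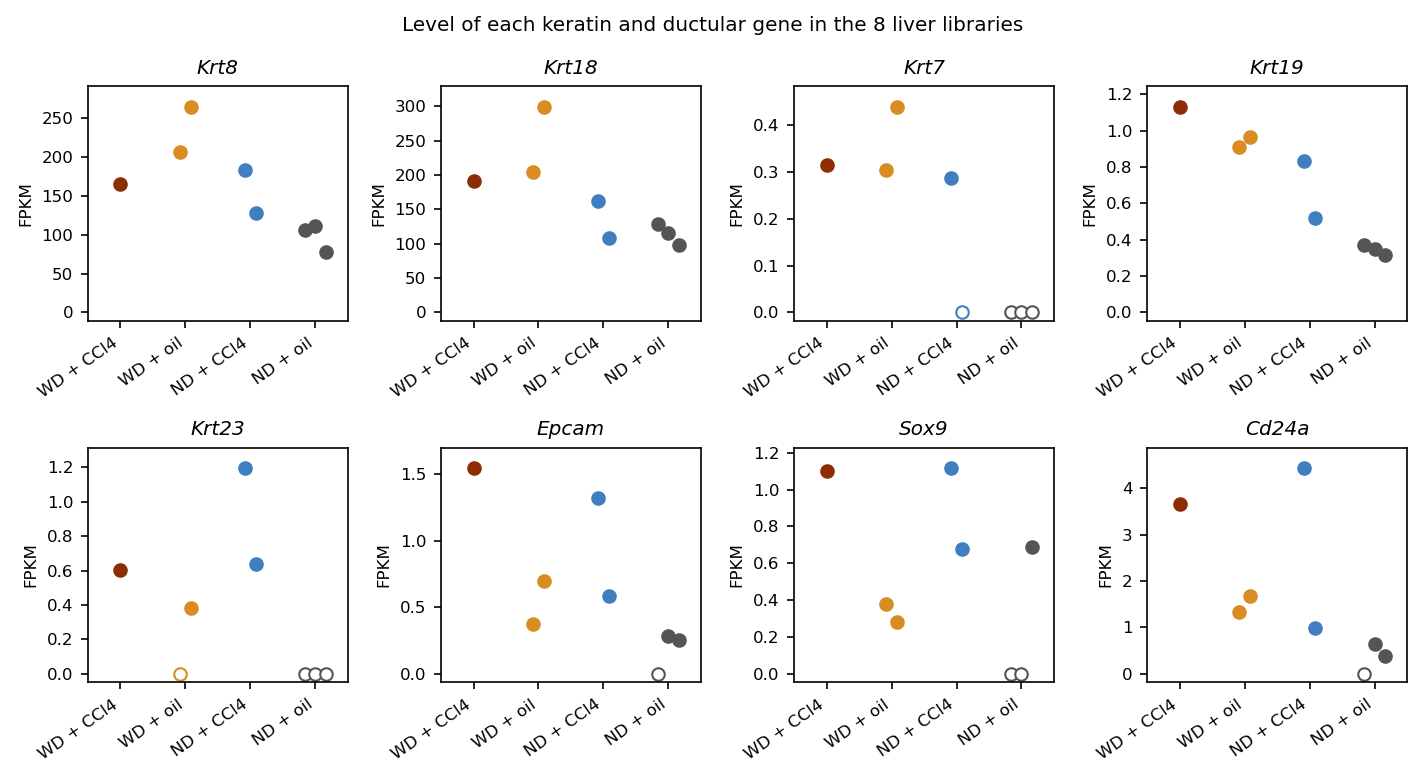
FPKM (linear axes from 0, 1 scale per panel) of the 8 genes, with 1 point per library in 4 groups; WD is western diet and ND normal diet, and open circles are libraries listed at 0. Krt8 and Krt18 reach 265 and 299 FPKM in western diet + oil, while no ductular gene exceeds 4.43 FPKM and the 3 normal diet + oil libraries are listed at 0 for Krt7 and Krt23.

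Krt8 rose with the western diet alone. It averaged 236 ± 41.3 FPKM in western diet + oil (SD, n = 2) and 98.1 ± 18.1 FPKM in normal diet + oil (SD, n = 3), a 2.40-fold ratio of means, and its log2 fold change was 1.26 ± 0.25 (SE; limma adjusted p = 0.0374). Of the 11514 tested genes, 4.41% passed in this comparison, and 3.81% of the tested genes passed upward. Krt18 moved by a similar amount, with 252 ± 67.6 and 114 ± 14.97 FPKM in the same groups and a log2 fold change of 1.11 ± 0.26, and just missed the threshold (limma adjusted p = 0.0544). For both genes every western diet + oil library lay above every normal diet + oil library, as for 40.7% of the tested genes. The Krt8 call ended with median-of-ratios scaling (log2 fold change 0.99, limma adjusted p = 0.064), without a filter on low values (0.0857) and with the replicate number as a block (0.174). It also ended without western diet + oil library 1 or 2 (log2 fold change 1.44 and 1.08), where 1 library is left in that group. Without normal diet + oil library 1 (limma adjusted p = 0.0796), 2 (0.0839) or 3 (0.087) it ended too. Krt18 passed only without normal diet + CCl4 library 1 or 2. Many more of all tested genes passed in those fits, so this is not read as a result.

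With CCl4 on the normal diet neither hepatocyte keratin passed. Krt8 averaged 155 ± 39.8 FPKM (SD, n = 2) against the 98.1 ± 18.1 FPKM of normal diet + oil. That is 0.65 ± 0.25 on the log2 scale (SE; limma adjusted p = 0.19). Krt18 averaged 136 ± 38.3 FPKM (SD, n = 2) against 114 ± 14.97 FPKM, or a log2 value of 0.23 ± 0.26 (limma adjusted p = 0.579). This value turned to -0.10 with median-of-ratios scaling and to -0.06 without normal diet + CCl4 library 1. In that comparison 1.42% of tested genes passed. The Krt8 libraries did not overlap between the groups, as for 41.8% of tested genes. In the single western diet + CCl4 library the log2 fold changes against normal diet + oil were 0.77 ± 0.32 for Krt8 and 0.75 ± 0.33 for Krt18 (SE; limma adjusted p = 0.308 and 0.336), where 0.929% of tested genes passed. It lay above the 3 control libraries for both, as for 51.5% of tested genes. That library has no replicate and was assumed to vary like the others. It lay below both western diet + oil libraries for Krt8 and for Krt18, as did 36.8% of tested genes, with log2 fold changes of -0.49 ± 0.34 and -0.37 ± 0.35 (limma adjusted p = 1 for both; 0.0434% of tested genes passed). Against western diet + oil, normal diet + CCl4 differed by -0.89 ± 0.29 in Krt18 and -0.61 ± 0.28 in Krt8 on the log2 scale, and neither passed (limma adjusted p = 0.282 and 0.47; 0.617% of tested genes passed).

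The balance within the pair, which no scaling of a library can change, was lowest in normal diet + CCl4. The ratio of Krt18 to Krt8 FPKM was 1.15 with western diet + CCl4, 0.987 and 1.13 with western diet + oil, only 0.886 and 0.853 with normal diet + CCl4, against 1.21, 1.04 and 1.27 with normal diet + oil. Both normal diet + CCl4 libraries lay below all the others, in which the ratio ran between 0.987 and 1.27. How often other pairs of genes show such an order was not counted, so nothing is read from it. The ratio is given as a description with no test.

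**Figure D2:**
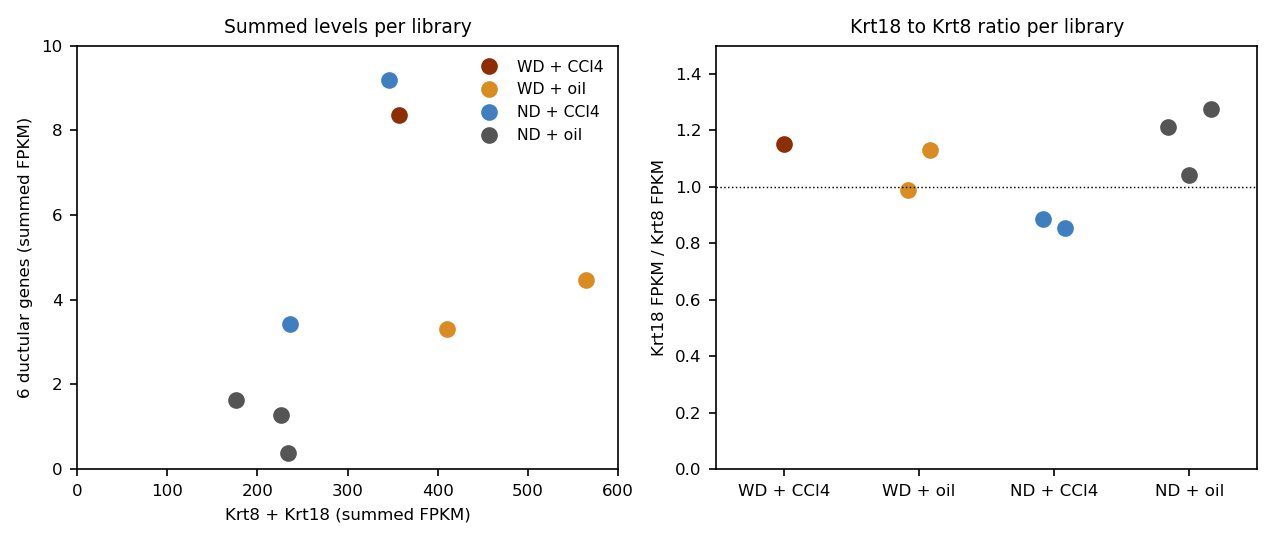
Left, summed FPKM of the 6 ductular genes against summed FPKM of Krt8 and Krt18; right, the ratio of Krt18 to Krt8 FPKM; points are libraries, and the dotted line marks a ratio of 1. The western diet + oil libraries have the highest Krt8 + Krt18 sums (410 and 564 FPKM), whereas the highest ductular sums are those of normal diet + CCl4 library 1 (9.19 FPKM) and western diet + CCl4 (8.35 FPKM). Cd24a alone gives 4.43 and 3.66 FPKM of these ductular sums.

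The ductular genes stood at levels far below the hepatocyte pair. Summed over the 6 genes they reached 8.35 FPKM with western diet + CCl4, 3.30 and 4.46 FPKM with western diet + oil, and 9.19 and 3.42 FPKM with normal diet + CCl4, against 0.369, 1.28 and 1.64 FPKM with normal diet + oil. All 5 other libraries lay above the 3 of normal diet + oil, as for 21.4% of the tested genes taken singly. Cd24a alone gave 3.66 FPKM of the sum with western diet + CCl4 and 4.43 FPKM in normal diet + CCl4 library 1. The Krt8 + Krt18 sum was 37.7 to 634 times as high as the ductular sum in the same library. The number of the 6 genes listed at 0 was 0 with western diet + CCl4, 1 and 0 in the western diet + oil libraries, and 0 and 1 in those of normal diet + CCl4. It was 5, 3 and 2 with normal diet + oil. Of all genes, 14215 stood above 0 with western diet + CCl4, 14087 and 14058 with western diet + oil, and 14843 and 13305 with normal diet + CCl4. With normal diet + oil only 12531, 13263 and 13373 did, so the counts at 0 are not read as a ductular difference.

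Of the ductular keratins, Krt19 was above 0 in every library and Krt7 and Krt23 were not. Krt19 (ENSMUSG00000020911, chromosome 11, 100140810 to 100148665) had 1.13 FPKM with western diet + CCl4, 0.909 and 0.965 FPKM with western diet + oil, and 0.832 and 0.522 FPKM with normal diet + CCl4, against 0.369, 0.349 and 0.315 FPKM with normal diet + oil. All 3 other groups lay above normal diet + oil without overlap, as did 21.4% of the tested genes. The 3 control values differed by 1.17 times between the highest and the lowest. They stood just above the lowest values listed above 0 in those libraries (0.302, 0.286 and 0.252 FPKM), so they had little room to spread downward. The ratio of means to normal diet + oil was 3.29 for western diet + CCl4, 2.72 for western diet + oil and 1.97 for normal diet + CCl4. Krt19 reached 1 FPKM in 1 library only and was not among the tested genes. In the fit with no filter its log2 fold changes were 0.67 ± 0.14, 0.53 ± 0.11 and 0.31 ± 0.11 in the same order (SE; limma adjusted p = 0.0979, 0.0907 and 0.223), so that it did not pass there either.

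Krt7, the type II partner of Krt19 in duct cells, had 0.316 FPKM with western diet + CCl4, 0.305 and 0.440 FPKM with western diet + oil, and 0.286 FPKM in normal diet + CCl4 library 1. Normal diet + CCl4 library 2 and the 3 libraries of normal diet + oil were listed at 0. Krt23 (ENSMUSG00000006777, chromosome 11, 99477974 to 99493137), a type I keratin reported in mouse liver as induced by stress, had 0.603 FPKM with western diet + CCl4, 0 and 0.382 FPKM with western diet + oil, and 1.20 and 0.640 FPKM with normal diet + CCl4. Again the 3 libraries of normal diet + oil were listed at 0, and unlike in Krt7 and Krt19 the 3 highest values were those of the CCl4 libraries. In the fit with no filter neither Krt7 nor Krt23 passed against normal diet + oil, with limma adjusted p between 0.121 and 0.524. No fold is given for them because the control libraries are listed at 0.

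Of the 54 genes with a keratin symbol in the table, 46 were listed at 0 in every library. Beside the 5 keratins described, Krt10, Krt20 and Krt80 were above 0 somewhere, with at most 1.02, 0.483 and 0.432 FPKM, and none of these 3 was tested. Krt8 and Krt18 were thus the 2 keratins above 1.20 FPKM in any library.

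Epcam, Sox9 and Cd24a reached 1 FPKM in at least 2 libraries and were tested. Epcam and Sox9 did so in western diet + CCl4 and normal diet + CCl4 library 1, and Cd24a in these and both western diet + oil libraries. A gene kept by the filter through the libraries where it is high had to differ, so their positive values are not counted as support for a group. Epcam (ENSMUSG00000045394, chromosome 17, 87635979 to 87651129), a cell adhesion protein of duct and progenitor cells, had 1.54 FPKM with western diet + CCl4, 0.375 and 0.6996 FPKM with western diet + oil, and 1.32 and 0.583 FPKM with normal diet + CCl4. With normal diet + oil it was listed at 0, 0.288 and 0.257 FPKM, below every other library, as for 21.4% of tested genes. Its log2 fold changes against normal diet + oil were 1.12 ± 0.31, 0.38 ± 0.24 and 0.71 ± 0.24 for western diet + CCl4, western diet + oil and normal diet + CCl4 (SE; limma adjusted p = 0.149, 0.391 and 0.164).

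Cd24a (ENSMUSG00000047139, chromosome 10, 43578284 to 43584265), a surface glycoprotein of duct cells that blood cells also carry, reached the highest value of the 6. In normal diet + oil libraries 1 and 3 it was not the highest. Cd24a had 3.66 FPKM with western diet + CCl4, 1.33 and 1.68 FPKM with western diet + oil, and 4.43 and 0.997 FPKM with normal diet + CCl4, against 0, 0.639 and 0.377 FPKM with normal diet + oil. Every library of the other groups lay above those of normal diet + oil, as for 21.4% of tested genes, and the normal diet + CCl4 libraries differed 4.45 times from each other. The log2 fold changes against normal diet + oil were 1.83 ± 0.51, 0.93 ± 0.40 and 1.33 ± 0.40 for western diet + CCl4, western diet + oil and normal diet + CCl4 (SE; limma adjusted p = 0.152, 0.213 and 0.136). Cd24a passed for western diet + CCl4 only without normal diet + CCl4 library 1 or 2. For normal diet + CCl4, Cd24a and Epcam passed only without library 2 of that group, with log2 fold changes of 2.05 and 0.98. Such fits leave 1 library in that group, and many more of all tested genes passed in them. The member calls gained there are thus not read as results. Without library 1 of that group the Cd24a value was 0.61.

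Markers of blood cells were higher in some of the same libraries. Neutrophil markers (7 genes, Ly6g and S100a8 among them) summed to 490 FPKM with western diet + CCl4, 21.2 and 43.3 FPKM with western diet + oil and 4.22 to 6.32 FPKM with normal diet + CCl4, against 1.77 to 9.02 FPKM with normal diet + oil. S100a8, an abundant neutrophil protein, had 135 FPKM with western diet + CCl4, 6.71 and 13.5 FPKM with western diet + oil, and 2.03 and 0.590 FPKM with normal diet + CCl4, against 1.08, 3.38 and 0.446 FPKM with normal diet + oil. The 6 tested neutrophil genes all passed upward for western diet + CCl4 against normal diet + oil, where 0.929% of tested genes passed. Camp, Ngp, Ltf and Retnlg reached 1 FPKM only in western diet libraries and so had to differ, and the count is no support. For western diet + oil, S100a9 alone passed (2.21 ± 0.41 on the log2 scale, SE; limma adjusted p = 0.0297), and the call held in 6 of 13 alternatives. It was lost without western diet + oil library 1 (limma adjusted p = 0.104) or 2 (0.3003) and without normal diet + oil library 1 (0.0775) or 3 (0.0548). Camp, Ltf and Retnlg also passed for western diet + CCl4 against western diet + oil (limma adjusted p = 0.00956, 0.027 and 0.0335), in 9 of 11, 5 of 11 and 3 of 9 alternatives. B cell markers (6 genes) summed to 105 FPKM with western diet + CCl4, 104 to 108 FPKM with western diet + oil and 24.9 to 36.7 FPKM with normal diet + CCl4, against 33.4 to 131 FPKM with normal diet + oil. By limma 0 of the 3 tested passed, with 1 at an unadjusted p under 0.05 in each of the comparisons with normal diet + oil. Of all tested genes, 15.3%, 23.3% and 22.8% stood under it for western diet + CCl4, western diet + oil and normal diet + CCl4. Erythroid genes (5) summed to 732 FPKM with western diet + CCl4, 554 to 928 FPKM with western diet + oil and 253 to 282 FPKM with normal diet + CCl4, against 230 to 350 FPKM with normal diet + oil. Of the 5, 3 (Hba-a1, Hba-a2 and Hbb-bs, globin chains) rose with western diet + oil, where 4.41% of tested genes passed. These calls held in 4, 4 and 3 of 13 alternatives, and all 3 were lost without either western diet + oil library (limma adjusted p of 0.142 to 0.204) and without any 1 normal diet + oil library (0.0541 to 0.113). The part of these cells in the Cd24a values was not tested.

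Sox9 (ENSMUSG00000000567, chromosome 11, 112782224 to 112787760), the transcription factor of the bile duct lineage, had overlapping groups. It had 1.099 FPKM with western diet + CCl4, 0.380 and 0.284 FPKM with western diet + oil, and 1.12 and 0.678 FPKM with normal diet + CCl4. With normal diet + oil it was listed at 0 in libraries 1 and 2 and at 0.689 FPKM in library 3, a value above both western diet + oil libraries. The log2 fold changes against normal diet + oil were 0.82 ± 0.35, 0.16 ± 0.28 and 0.66 ± 0.28 for western diet + CCl4, western diet + oil and normal diet + CCl4 (SE; limma adjusted p = 0.326, 0.761 and 0.213). Over the libraries left out, the western diet + oil value of Sox9 ran between 0.03 and 0.41. Neither Sox9 nor Epcam passed the filter without western diet + CCl4 or without normal diet + CCl4 library 1, nor did Sox9 with median-of-ratios scaling.

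**Figure D3:**
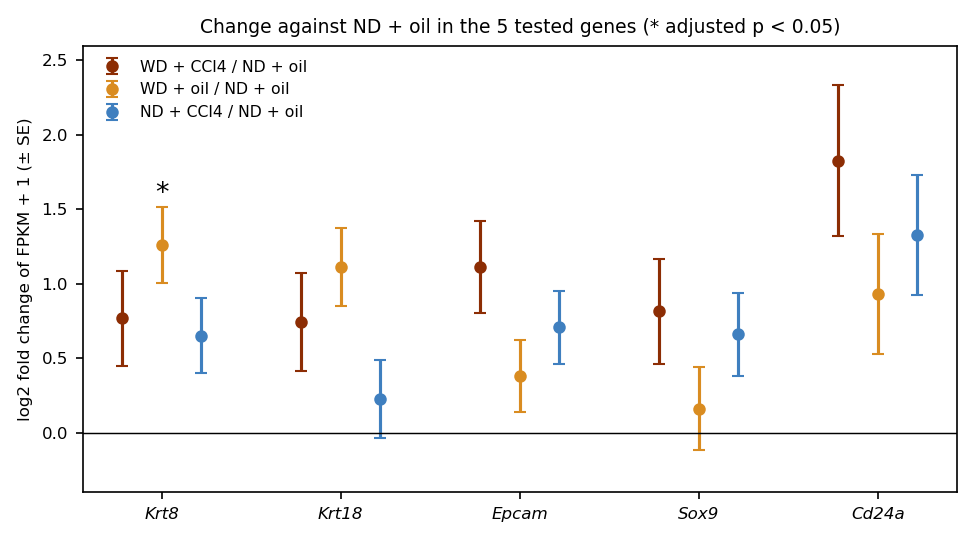
Log2 fold change of FPKM + 1 against normal diet + oil (points, with SE as bars) for the 5 tested genes in western diet + CCl4, western diet + oil and normal diet + CCl4; all share the same 3 control libraries. Only Krt8 in western diet + oil is marked as passing (1.26, limma adjusted p = 0.0374), and the single western diet + CCl4 library has the widest error.

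Set side by side, the libraries with the highest values varied from gene to gene. The 2 highest values of Krt8 and of Krt18 were those of western diet + oil, and the highest of Krt7 was also in western diet + oil. Krt19 was highest with western diet + CCl4, and Krt23 and Cd24a were highest in normal diet + CCl4 library 1. Epcam and Sox9 had their 2 highest values in western diet + CCl4 and normal diet + CCl4 library 1, the libraries through which they passed the filter, so that nothing is read from this. The levels of the ductular genes are compressed by the added 1 FPKM: with 0.1 FPKM added instead, the log2 fold change of Cd24a against normal diet + oil became 3.52 ± 1.14, 2.28 ± 0.90 and 2.77 ± 0.90 for western diet + CCl4, western diet + oil and normal diet + CCl4 (SE; limma adjusted p = 0.217, 0.186 and 0.157). No test of the difference between the 2 sets of genes was made. Over the 7 contrasts Krt8 with western diet + oil was the 1 call among the members. None of them (0) passed by limma for western diet + CCl4 against normal diet + CCl4 and for the interaction of diet and CCl4, where 0.261% and 0.0608% of tested genes passed. At an unadjusted p under 0.05 the first had 0 members and the interaction 1, Krt8, beside 9.78% of tested genes in the interaction.

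Other genes of the duct epithelium gave 0 calls. Of 22 such genes 11 were tested, and 0 rose and 0 fell in any of the 7 contrasts by limma. Against normal diet + oil, 3, 1 and 4 had an unadjusted p under 0.05 for western diet + CCl4, western diet + oil and normal diet + CCl4. Of all tested genes, 15.3%, 23.3% and 22.8% stood under it in the same order. The median log2 fold change of the 11 was 0.52, 0.40 and 0.71 in that order, beside 0.19, 0.22 and 0.26 over all tested genes. Tspan8, Mmp7 and Bicc1 among the 11 reached 1 FPKM in no normal diet + oil library, so these medians are a description from which nothing is read. Cftr, the chloride channel of duct cells, Sctr, their secretin receptor, and Cldn4 were listed at 0 in all 8 libraries. Spp1 (osteopontin), made by macrophages as well as duct cells, was singled out after its values were seen and did not pass. It had 170 FPKM with western diet + CCl4, 58.4 and 94.8 FPKM with western diet + oil, and 455 and 26.8 FPKM with normal diet + CCl4, against 19.2, 39.1 and 17.3 FPKM with normal diet + oil. Markers of macrophages (8 genes) summed to 110 FPKM with western diet + CCl4, 164 and 293 FPKM with western diet + oil, and 137 and 40.5 FPKM with normal diet + CCl4, against 21.8 to 47.4 FPKM with normal diet + oil. Of the 8, 5 rose with western diet + oil, where 4.41% of tested genes passed, Marco, a scavenger receptor, with the smallest p (log2 fold change 3.65 ± 0.44, SE; limma adjusted p = 0.0139). That call was lost without western diet + oil library 1 (limma adjusted p = 0.0731) or 2 (0.142). The calls of Clec4f, a Kupffer cell lectin, and Csf1r, the receptor of a macrophage growth factor, held in 7 and 6 of 13 alternatives. Both were lost without western diet + oil library 1 (limma adjusted p = 0.0832 and 0.107) or 2 (0.257 and 0.272) and without normal diet + oil library 1 (0.0719 and 0.0694) or 2 (0.073 and 0.0662), and Csf1r also without library 3 (0.0544). Markers of stellate cells (10 genes), some of which make Sox9 in fibrosis, summed to 42.4 FPKM with western diet + CCl4, 41.7 and 52.9 FPKM with western diet + oil, and 89.3 and 27.5 FPKM with normal diet + CCl4, against 13.3 to 19.3 FPKM with normal diet + oil. Of the 9 tested, Colec11 rose with western diet + oil (1.62 ± 0.22 on the log2 scale, SE; limma adjusted p = 0.0152), where 4.41% of all tested genes passed. That call was lost without western diet + oil library 1 (limma adjusted p = 0.0832) or 2 (0.182) or normal diet + oil library 2 (0.0525). The part of these cells in the ductular values was not tested.

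Other epithelia carry the same keratins. Mesothelial markers (6 genes) summed to 1.12 FPKM with western diet + CCl4, 0.378 to 2.96 FPKM with western diet + oil and 0 to 0.990 FPKM with normal diet + CCl4, against 0 to 1.42 FPKM with normal diet + oil. In western diet + oil library 1, where it was highest, the mesothelial sum was 2.96 FPKM beside a ductular sum of 3.30 FPKM. Msln, the defining gene of mesothelium, had 1.29 FPKM there beside 0.909 FPKM of Krt19. Where the ductular sums were highest, the mesothelial sum was 1.12 beside 8.35 FPKM (western diet + CCl4) and 0.990 beside 9.19 FPKM (normal diet + CCl4 library 1). Msln was listed at 0 in 3 of 8 libraries and Lrrn4 in all 8, and the part of mesothelium in the ductular values was not tested. Of 6 genes of the exocrine pancreas, 5 were listed at 0 in every library and the sum did not exceed 0.674 FPKM.

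Notch signalling, which drives duct cell fate, was represented by 12 genes, of which 6 were tested. Hes1, a transcriptional repressor and direct target of Notch, rose with normal diet + CCl4, where it had 7.69 and 6.13 FPKM against 1.68, 1.22 and 1.36 FPKM with normal diet + oil (log2 fold change 1.71 ± 0.24, SE; limma adjusted p = 0.0243). It also stood at 4.68 FPKM with western diet + CCl4 and 2.45 and 4.96 FPKM with western diet + oil. The other 5 tested genes did not pass in the comparison of normal diet + CCl4, where 1.42% of all tested genes passed. The Hes1 call held in 7 of 13 alternatives and ended without normal diet + CCl4 library 1 (limma adjusted p = 0.155) and without normal diet + oil library 1 (0.0521), 2 (0.0902) or 3 (0.0682). In western diet + CCl4 and in western diet + oil against normal diet + oil, 0 of the 6 passed by limma. In each, 2 had an unadjusted p under 0.05, beside 15.3% and 23.3% of all tested genes. Jag1, the Notch ligand of the portal tract, had 0.381 to 0.953 FPKM in the 5 other libraries and 0.349 to 0.412 FPKM with normal diet + oil, and was not among the tested genes.

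Of 10 genes of YAP signalling and its targets, which mark duct-like change of hepatocytes in mouse, 8 were tested. Axl, a receptor kinase that macrophages also make, rose with western diet + oil, with 6.73 and 8.69 FPKM against 1.13, 1.45 and 1.60 FPKM with normal diet + oil (log2 fold change 1.86 ± 0.39, SE; limma adjusted p = 0.0415). The other 7 did not pass, and 4.41% of all tested genes passed in that comparison. With western diet + CCl4 or with normal diet + CCl4, 0 of the 8 passed by limma. In each, 3 had an unadjusted p under 0.05, beside 15.3% and 22.8% of all tested genes. The Axl call held in 4 of 13 alternatives and was lost without western diet + oil library 1 (limma adjusted p = 0.151) or 2 (0.338) and without normal diet + oil library 1 (0.0955), 2 (0.0955) or 3 (0.0977).

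Among 10 genes that tie keratin filaments to desmosomes and to each other, 9 were tested and 1 rose. It did so with normal diet + CCl4 against normal diet + oil, where 1.42% of all tested genes passed. Ppl, periplakin, a linker of intermediate filaments, had 5.36 and 5.05 FPKM with normal diet + CCl4 against 1.01, 1.82 and 0.612 FPKM with normal diet + oil (log2 fold change 1.57 ± 0.23, SE; limma adjusted p = 0.0259). With western diet + CCl4 and western diet + oil it had 2.15, 1.85 and 2.02 FPKM and did not pass. The Ppl call held in 6 of 13 alternatives and ended with median-of-ratios scaling (limma adjusted p = 0.0513). It was also lost without western diet + oil library 1 (limma adjusted p = 0.0697) or 2 (0.0659), normal diet + CCl4 library 1 (0.16) or normal diet + oil library 1 (0.069). Of 11 genes for keratin-bound chaperones, 14-3-3 proteins and other parts of Mallory-Denk bodies, the keratin aggregates of injured hepatocytes, all were tested. Tgm2, the transglutaminase that cross-links keratins, rose with western diet + oil, with 61.1 and 66.1 FPKM against 20.1, 29.1 and 25.6 FPKM with normal diet + oil (log2 fold change 1.33 ± 0.28, SE; limma adjusted p = 0.043). The Tgm2 call held in 3 of 13 alternatives and was lost with a pseudocount of 0.1 (limma adjusted p = 0.0522). It was also lost without western diet + oil library 1 (limma adjusted p = 0.165) or 2 (0.334) and without normal diet + oil library 1 (0.0963), 2 (0.0839) or 3 (0.0984). The other 10 genes did not pass, and 4.41% of all tested genes passed with western diet + oil against normal diet + oil. The adaptor Sqstm1 (p62), the main non-keratin part of these aggregates, had 132 FPKM with western diet + CCl4, 157 and 105.5 FPKM with western diet + oil, and 107 and 103 FPKM with normal diet + CCl4, against 121, 115 and 103 FPKM with normal diet + oil, so the groups overlapped. Of 9 other intermediate filament genes, 5 were tested and 0 passed by limma in the comparisons with normal diet + oil. At an unadjusted p under 0.05 there were 1, 3 and 3 for western diet + CCl4, western diet + oil and normal diet + CCl4. Of all tested genes, 15.3%, 23.3% and 22.8% stood under it in these comparisons. Vimentin (Vim), the filament of mesenchymal cells, had 18.1 FPKM with western diet + CCl4, 16.9 and 24.3 FPKM with western diet + oil, and 34.4 and 7.90 FPKM with normal diet + CCl4, against 3.54, 7.21 and 3.24 FPKM with normal diet + oil.

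The likeness of other tested genes to each member was measured by the root-mean-square difference of log2(FPKM + 1), each gene centred on its mean over the 8 libraries. For Krt8 the nearest genes were Phf11d (0.10) and Aldoa (0.12), and Krt18 ranked 50th at 0.19. For Krt18 they were Atp9a and Coro1b (both 0.14), and Krt8 ranked 31st. The nearest genes were Eif4e3 (0.11) and Ctsk (0.14) for Epcam, Kifc3 (0.13) and Scoc (0.15) for Sox9, and Pcolce (0.17) and Pygb (0.19) for Cd24a. Epcam, Sox9 and Cd24a lay between 0.26 and 0.55 from each other and between 0.47 and 0.66 from Krt8 and Krt18, so the ranges overlapped. Low genes can move little on this scale. From Epcam, Sox9 ranked 294th and Cd24a 4032nd, and from Sox9, Epcam ranked 152nd and Cd24a 8446th. Epcam and Sox9 passed the filter through the same libraries, so nothing is read from their nearness.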

How the data were processed

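Liver RNA-seq was taken as the authors deposited it, as FPKM (fragments scaled by transcript length and by mapped fragments) for 55487 genes in 8 libraries, per the file headers. The submitters' processing notes list HISAT2 2.2.1, StringTie 2.1.0, cutadapt 3.7, FastQC 0.11.9 and the build GRCm38, without roles. The stranded TruSeq mRNA kit was used, per the labels' protocols. Depth is unknown, so no counting error is given. Groups came from the sample titles. No pair of libraries shared a value above 0 (0 identical values over 28 pairs).

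Genes of at least 1 FPKM in at least 2 libraries (11514) were fitted on log2(FPKM + 1) with limma 3.58.1 in R 4.3.3, with a mean per group, 1 spread over the 4 groups, a trended eBayes and 7.93 total degrees of freedom. There were 7 two-sided contrasts (6 pairs of groups, and diet by CCl4), adjusted by Benjamini-Hochberg over all tested genes within each, with a threshold of 0.05. Contrasts with normal diet + oil share its 3 libraries. The fit was tested on simulated data. Coordinates are GENCODE M21 on GRCm38; promoter sequences are RefSeq's.

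The 8 members and 15 further gene lists (all genes matched, 2 by an older symbol) were chosen with earlier results of these data known. Named beside the members were at most 3 genes per list and contrast that passed with the smallest p, the 2 genes nearest each tested member (without predicted genes) and defining markers. Genes named outside that rule to show levels (Spp1, Sqstm1, Vim, Jag1 and genes listed at 0) were chosen after their values were seen. Some genes of these lists are not reported here by name. Alternatives were a pseudocount of 0.1, no filter, median-of-ratios scaling, removal of the 22 Mup genes with rescaling, the replicate number as a block, and each library left out in turn.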

Additional observations from a re-analysis of the deposited data

Results flagged for a closer look

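Krt8 values with CCl4 lay on opposite sides of those with oil on the 2 diets: the western diet + CCl4 library (166 FPKM) lay below both western diet + oil libraries (206 and 265 FPKM), while both normal diet + CCl4 libraries (184 and 127 FPKM) lay above all 3 normal diet + oil libraries (106, 111 and 77.4 FPKM). Of tested genes, 36.8% lay lower in this way on the western diet and 41.8% higher on the normal diet. Krt8 was flagged because it did both, and the share of tested genes that did both was not counted. Krt8 passed on neither diet (limma adjusted p = 1 and 0.19). The test of that difference, the interaction of diet and CCl4, gave -1.14 ± 0.42 on the log2 scale (SE; limma unadjusted p = 0.0271, adjusted p = 0.481) and did not pass, and the western diet side rests on 1 library. All tested genes had a median of -0.29 in this interaction, and with median-of-ratios scaling the Krt8 value was -0.78 (limma adjusted p = 0.831). The Krt18 interaction was -0.59 ± 0.44 (limma adjusted p = 0.627).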

How the results depend on the processing

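The Krt8 rise with western diet + oil kept its direction in all 13 alternatives (log2 fold change 0.99 to 1.44) and passed in 5 of them. The number of members that passed there was 0 without a filter, 0 with median-of-ratios scaling, 0 with the replicate block, and 0 to 2 over the libraries left out. It was 0 to 1 for western diet + CCl4 and 0 to 2 for normal diet + CCl4 against normal diet + oil over the libraries left out. Signs turned for Krt18 with normal diet + CCl4 against normal diet + oil (-0.10 with median-of-ratios scaling, -0.064 to 0.52 over the libraries left out), for the Epcam interaction (-0.62 with pseudocount 0.1, -0.0022 with the replicate block, -0.25 to 0.18 over the libraries left out) and for the Sox9 interaction (0.024 without Mup genes, -0.26 to 0.12 over the libraries left out). Over the libraries left out, western diet + CCl4 against normal diet + CCl4 ran between -0.15 and 0.38 for Krt8, -0.012 and 0.15 for Sox9 and -0.22 and 1.22 for Cd24a. Cd24a ran between -0.32 and 1.12 for normal diet + CCl4 against western diet + oil and between -1.15 and 0.29 for the interaction. Counts over all tested genes, which these calls are read against, moved widely. Against normal diet + oil, 107 genes passed for western diet + CCl4 (43 with pseudocount 0.1, 171 without a filter, 6 with the replicate block, 36 to 486 over the libraries left out). For western diet + oil 508 passed (121 without a filter, 283 with median-of-ratios scaling, 310 without Mup genes, 32 with the replicate block, 4 to 1159 over the libraries left out). For normal diet + CCl4 164 passed (18 without a filter, 91 with median-of-ratios scaling, 49 with the replicate block, 22 to 1165 over the libraries left out). For western diet + CCl4 against western diet + oil 5 passed (0 with pseudocount 0.1, 69 without a filter, 0 with the replicate block, 1 to 16 over the libraries left out). For western diet + CCl4 against normal diet + CCl4 30 passed (15, 109, 11, and 6 to 32 in the same order). For normal diet + CCl4 against western diet + oil 71 passed (6 without a filter, 1 to 122 over the libraries left out). For the interaction 7 passed (3 with pseudocount 0.1, 17 without a filter, 0 with median-of-ratios scaling, 2 without Mup genes, 2 with the replicate block, 0 to 168 over the libraries left out). The cause was not tested. The sources do not say whether libraries with the same replicate number were handled together. Deviations of same-numbered libraries from their group means correlated between -0.279 and -0.014. This cannot decide the question, because the libraries in a group of 2 always deviate by equal and opposite amounts.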
